A study of Rattus norvegicus with 32 samples.

Results

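Bone morphogenetic protein (BMP), activin and transforming growth factor beta (TGF-beta) signalling genes were described across 16 cultures of rat epithelial cells. Members were chosen by gene symbol: BMPs and growth differentiation factors (GDFs), activin and inhibin subunits, TGF-beta ligands and their latent binding proteins, receptors, Smads and their regulators, secreted antagonists, and the target genes Id1, Id2, Id3, Id4 and Tgfbi. The rule took 68 of the 14511 genes on the table, measured by 71 of 15316 probe sets. It also took Bmp1, a procollagen protease, and Bmp2k, a kinase, for their names. A further probe set that carried the symbols of 2 genes was left out.

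The cells came from Sprague-Dawley rats that express enhanced green fluorescent protein throughout (act-EGFP), in every group alike, and all cultures grew on irradiated 3T3-J2 mouse fibroblasts as a feeder layer. Of the 12 thymic epithelial cell (TEC) cultures, 4 had not been grafted, 4 had been recovered after a first transplantation into skin on nude mice (first-graft) and 4 after a second (second-graft). Each of these groups held 3 clonal cultures and 1 bulk culture, where Clone_907 and Clone_354 were taken as bulk from their source label although their titles call them clones. The donors were at embryonic day 16 (E16, 5 cultures in all), postnatal day 1 (P1, 3 cultures) and 4 months (4 cultures). The hair follicle (HF) cultures were 2 recovered after a first transplantation and 2 ungrafted, with 1 clonal and 1 bulk culture in each group, all labelled P5 without further explanation. TEC and HF cultures therefore differ in tissue and in donor label together, and these cannot be told apart. The grafted cultures are not the ungrafted ones measured again, so exposure to skin cannot be told apart from selection, recovery or added culture, and a clonal culture stands for 1 clone. Nothing in the labels says that the cultures of a group came from separate animals, so the p-values measure the spread between these cultures. The question behind the series was how thymic epithelial cells compare with hair follicle stem cells before and after time in skin.

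In this pathway a dimeric ligand joins type I and type II receptor kinases. BMP receptors (Acvr1, Bmpr1a, Bmpr1b) phosphorylate Smad1, Smad5 and Smad9, whereas activin and TGF-beta receptors (Acvr1b, Tgfbr1) phosphorylate Smad2 and Smad3. Both kinds of Smad join Smad4 and enter the nucleus, where Id genes are direct BMP targets and the inhibitory Smad6 and Smad7 feed back on the receptors. Secreted proteins such as follistatin, noggin, chordin and gremlin hold ligands away from their receptors. In skin, BMP signals hold hair follicle stem cells at rest and their inhibition accompanies follicle growth, and in the embryo BMP4 takes part in early thymus formation.

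Upstream sequence is shown for genes that passed a test and had an entry in the rat RefSeq table (Id2, Gdf15 and Smad1). The receptor Acvr1b and the inhibitor Smad7, named below, were added as examples because their windows held a Smad motif. Windows of other genes named below (Inhbb, Bmp2k, Tgfbi, Chrd, Grem1, Nog and Smad2) held the same motif and are not printed. Each line gives the 250 bases before the transcription start, 5′ to 3′ on the gene's own strand, from RefSeq on build GRCr8. Capitals mark GGCGCC, the GC-rich motif bound by BMP Smads.
Id2, chr6:47470996-47471245, minus strand: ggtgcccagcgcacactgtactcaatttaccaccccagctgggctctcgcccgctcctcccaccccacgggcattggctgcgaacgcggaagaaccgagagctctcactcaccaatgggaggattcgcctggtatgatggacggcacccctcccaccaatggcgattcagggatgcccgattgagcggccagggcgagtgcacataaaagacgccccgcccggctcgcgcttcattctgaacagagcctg
Gdf15, chr16:18838186-18838435, plus strand: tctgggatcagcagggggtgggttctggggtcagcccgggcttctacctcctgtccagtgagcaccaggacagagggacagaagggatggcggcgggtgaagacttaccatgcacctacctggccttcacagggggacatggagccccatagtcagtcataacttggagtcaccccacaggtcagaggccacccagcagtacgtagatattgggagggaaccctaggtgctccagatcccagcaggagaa
Smad1, chr19:45417292-45417541, plus strand: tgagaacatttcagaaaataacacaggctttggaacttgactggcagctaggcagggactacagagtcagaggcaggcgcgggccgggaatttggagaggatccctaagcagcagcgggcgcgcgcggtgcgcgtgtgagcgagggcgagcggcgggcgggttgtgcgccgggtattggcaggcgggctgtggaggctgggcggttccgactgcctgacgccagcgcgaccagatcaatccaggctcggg
Acvr1b, chr7:134164751-134165000, plus strand: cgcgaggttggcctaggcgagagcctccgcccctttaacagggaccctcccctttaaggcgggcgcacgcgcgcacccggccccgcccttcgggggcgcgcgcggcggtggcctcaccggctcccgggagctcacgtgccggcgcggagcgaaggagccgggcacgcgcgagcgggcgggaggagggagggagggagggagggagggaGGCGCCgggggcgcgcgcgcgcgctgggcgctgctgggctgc
Smad7, chr18:71263258-71263507, plus strand: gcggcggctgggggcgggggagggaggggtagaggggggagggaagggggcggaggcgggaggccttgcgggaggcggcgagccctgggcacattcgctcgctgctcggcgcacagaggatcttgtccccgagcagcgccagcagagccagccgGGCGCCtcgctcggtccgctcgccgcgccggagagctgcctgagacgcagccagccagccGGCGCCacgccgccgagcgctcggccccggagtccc

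Entries were found for 55 of the 68 genes. Fst, Acvr1, Bmpr1b and Tgif1 were among the other 13. The motif GGCGCC, which reads the same on both strands, was present in 14 of the 55 windows (25.5%), against 2536 of 27457 windows of all genes in the table (9.24%). The short Smad box CAGAC, searched on both strands as CAGAC and GTCTG, was present in 14 of the 55 windows (25.5%), against 11740 of 27457 (42.8%). Neither set of letters occurs inside the other. The Id2, Gdf15 and Smad1 windows held neither motif, and had a GC content of 62.8%, 59.6% and 64.8%. The Acvr1b window, with 1 GGCGCC, was 79.6% GC and the Smad7 window, with 2, was 78.0% GC. GGCGCC holds only G and C, and the 14 member windows with it were 65.6% to 86.8% GC. Neither share was matched for GC content against all genes, and the part of base composition in them was not tested. A match describes letters and was not tested for binding.

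Values are log2 signals after robust multi-array averaging (RMA), so a difference of 1 is a factor of 2, and signals of different probe sets were not compared with each other. Each culture was measured on 2 arrays, which were averaged. Arrays of a culture correlated at 0.9889 to 0.9979 and different cultures at 0.9552 to 0.9957 (Pearson, across probe sets). The epithelial keratin Krt14 was 12.95 to 13.35 in all 16 cultures. One culture stood apart: the ungrafted HF bulk culture YR219P5_Bulk_V had Epcam at 7.64 (9.73 to 10.87 in the others) and Cdh1 at 9.19 (10.44 to 10.79), both epithelial adhesion genes, and the fibrillin gene Fbn1 at 5.93 (4.18 to 4.81). Not all epithelial markers were low there, as Tp63 was at its highest (10.10, against 9.02 to 9.80). Of 13 fibroblast and feeder markers, Fbn1, Vim (11.81) and Thy1 (6.77) were at their highest there. The rest of these markers lay within the range of the other cultures. Values that rest on the ungrafted HF cultures are therefore also given without YR219P5_Bulk_V for the named genes. In the grafted HF group, array 1 of YR219P5_RC had a median of 5.78, against 5.29 to 5.55 on the others.

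The members varied more between the 16 cultures than probe sets at large, in a comparison that was not matched for signal level. Their median SD between cultures was 0.26, against 0.21 over all probe sets, and 14 of 71 (19.7%) had an SD over 0.5, against 9.99%. Most of this lay in a few genes. Bmp3, a BMP that opposes other BMPs, had the largest SD (1.27), followed by Tgfbi, a TGF-beta induced matrix protein (1.24), Ltbp2 (1.14), Fst (1.12) and Tgfb3 (1.12). By role, the target genes had the highest median SD (0.58) and secreted antagonists and modulators the lowest (0.14). Bmp5, Bmp10 and Gdf3 were under 4 in all cultures, too low to be counted here as above background, and 5 more members (Bmp2, Bmp15, Gdf9, Acvr1c and Grem1) were under 4 in at least 1. So 3 of 71 members were under 4 in all cultures, against 2281 of 15316 probe sets at large. The part of this in the SDs was not tested.

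**Figure D1:**
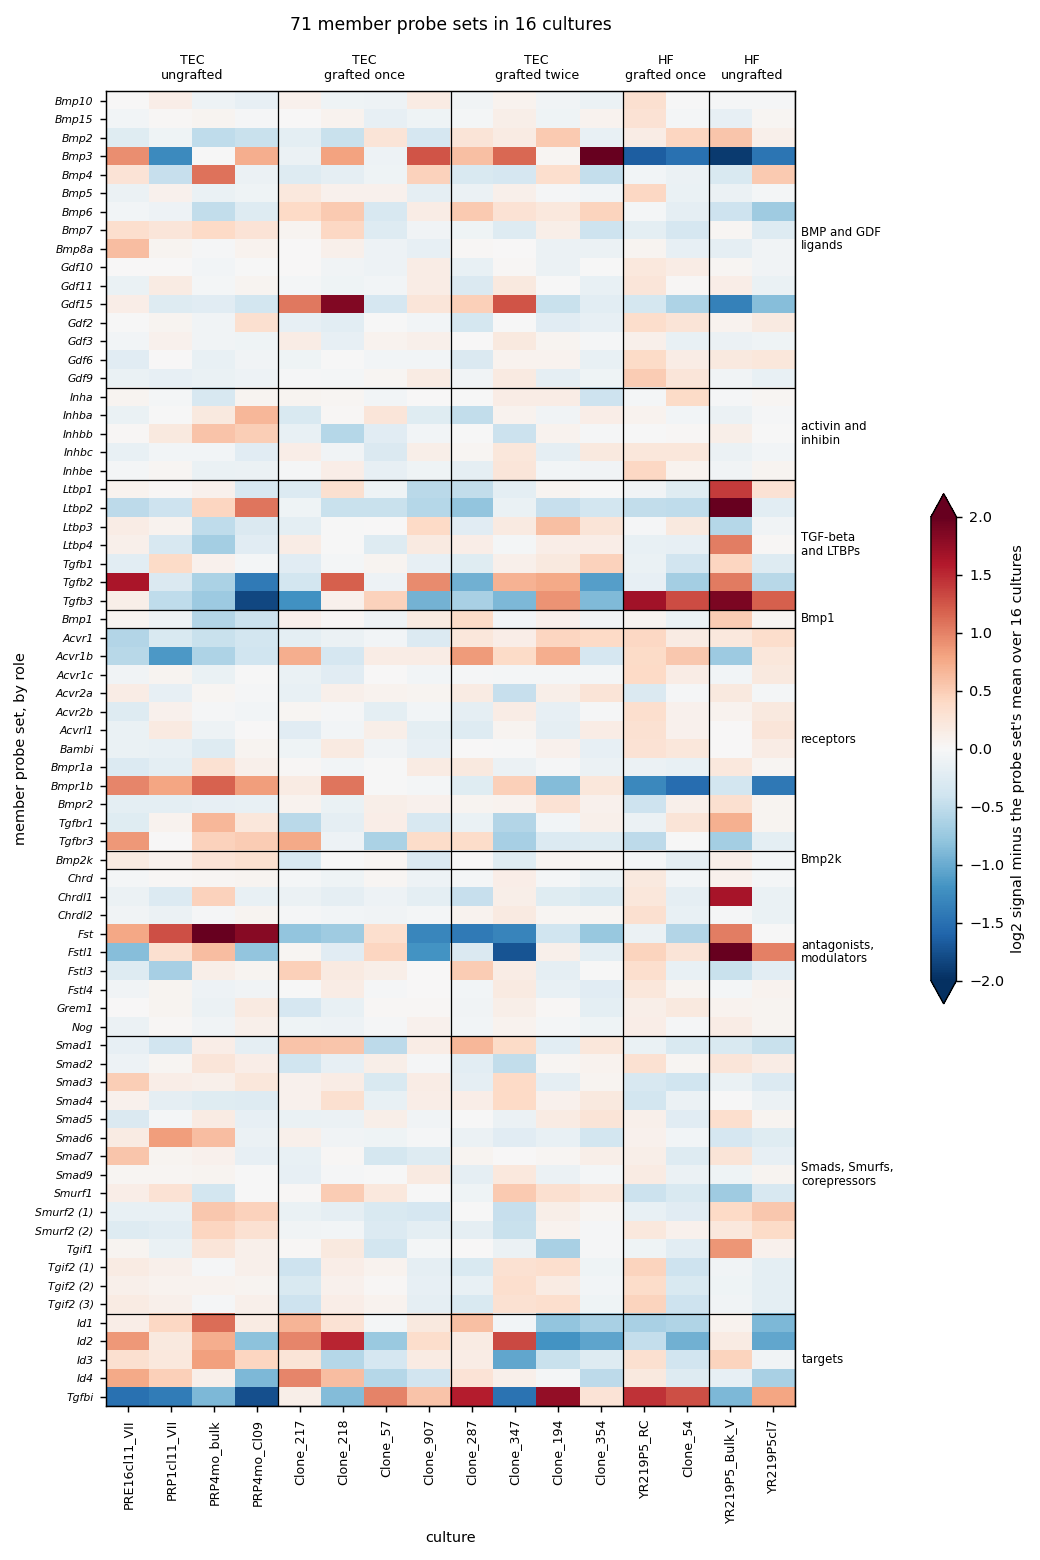
Log2 signal of each of the 71 member probe sets (rows, by role) in each of the 16 cultures (columns, by group), as the difference from that probe set's own mean; the colour scale ends at 2 in either direction. Fst and Bmpr1b are red in the 4 ungrafted TEC cultures, Bmp3 is blue and Tgfb3 red in the 4 HF cultures, and the latent binding proteins Ltbp1, Ltbp2 and Ltbp4 are red in YR219P5_Bulk_V.

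Before grafting, TEC cultures had more Bmpr1b and less Acvr1 than HF cultures. Bmpr1a, the other type I BMP receptor named above, differed by −0.14 (adjusted p = 0.776). Bmpr1b and Acvr1 were the 2 of 71 members past the threshold (2.82%; limma, Benjamini-Hochberg adjusted p under 0.05 over all probe sets), where 1.55% of all probe sets passed. Unadjusted p-values under 0.05 were found for 20 of 71 members (28.2%), against 13.5% of all probe sets. The median difference of the members was −0.01, as it was over all probe sets (−0.01). By role, 2 of 12 receptors passed, and none of the 16 ligands of the BMP and GDF group, 5 activin and inhibin subunits, 7 TGF-beta ligands and binding proteins, 9 antagonists or modulators, 15 Smad, Smurf and corepressor probe sets or 5 targets did.

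Bmpr1b (chromosome 2), a type I receptor for BMPs and GDFs, was 7.16, 6.97, 7.35 and 7.02 in the ungrafted TEC cultures, against 5.82 in YR219P5_Bulk_V and 4.75 in YR219P5cl7. The groups did not overlap, and the HF cultures lay further apart than the 4 TEC cultures did. The means were 7.13 ± 0.17 (SD, n = 4) in TEC and 5.28 ± 0.76 (SD, n = 2) in HF, a log2 difference of 1.84 ± 0.38 (SE), or 3.59-fold (limma, adjusted p = 0.0315). Without YR219P5_Bulk_V it was 2.38 (limma, adjusted p = 0.0657), and without YR219P5cl7 1.31 (adjusted p = 0.196). It also did not pass when any 1 of the 4 ungrafted TEC cultures was left out (adjusted p = 0.0519 to 0.0676), nor with clonal cultures alone (adjusted p = 0.282, or 0.193 with Clone_907 and Clone_354 counted as clones).

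Acvr1 (chromosome 3), the type I receptor ALK2, was 7.08, 7.36, 7.21 and 7.30 in the ungrafted TEC cultures, against 7.87 and 8.02 in the ungrafted HF cultures. All 4 TEC values lay below both HF values. The means were 7.24 ± 0.12 (SD, n = 4) and 7.95 ± 0.10 (SD, n = 2), a difference of −0.71 ± 0.12 (SE), 1.63-fold (limma, adjusted p = 0.0107). It did not pass without YR219P5_Bulk_V (−0.78, adjusted p = 0.0793), without YR219P5cl7 (−0.63, adjusted p = 0.0526), with the compared cultures alone in the fit (adjusted p = 0.0508) or with clonal cultures alone (adjusted p = 0.278, or 0.176 with Clone_907 and Clone_354 counted as clones).

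Fst, which encodes follistatin, a secreted protein that binds activins and some BMPs, was 9.79 to 11.16 in ungrafted TEC cultures and 9.01 and 10.03 in ungrafted HF cultures. The groups overlapped, and the difference of 1.00 ± 0.46 (SE) did not pass (limma, adjusted p = 0.369).

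Among the TGF-beta ligands and latent binding proteins, none passed, and 4 of 7 had an unadjusted p under 0.05. Tgfb3, a TGF-beta ligand, was 6.75, 6.12, 5.90 and 4.81 in the ungrafted TEC cultures, against 8.50 and 7.82 in the ungrafted HF cultures. These values did not overlap, with a difference of −2.27 ± 0.59 (SE; limma, adjusted p = 0.0807), and −1.92 without YR219P5_Bulk_V (adjusted p = 0.520). Of the 4 genes named as latent binding proteins, 3 were high and 1 was low in the same HF culture. Ltbp2 was 5.64 to 7.23 in the ungrafted TEC cultures, against 10.10 in YR219P5_Bulk_V and 5.94 in YR219P5cl7. Ltbp1 was 9.26 to 9.65 in the TEC cultures, against 10.96 and 9.85, and Ltbp4 6.56 to 7.34 in the TEC cultures, against 8.26 and 7.27. In each of these 3 genes YR219P5_Bulk_V was the highest of all 16 cultures. Ltbp3 went the other way: it was 7.77 to 8.42 in the TEC cultures, against 7.71 in YR219P5_Bulk_V, the lowest of all 16 cultures, and 8.21 in YR219P5cl7 (difference 0.17, and −0.07 without YR219P5_Bulk_V).

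With YR219P5_Bulk_V as the sole ungrafted HF culture, assumed to vary like the other groups, 4 members passed, namely Ltbp2 (−3.80), Chrdl1 (−1.67), Ltbp1 (−1.43) and Ltbp4 (−1.30), all lower in TEC. These were 5.63% of the members, where 2.45% of all probe sets passed in that fit. With YR219P5cl7 as the sole one, 0 members and 0.118% of all probe sets passed, and the differences of Ltbp2, Ltbp1, Ltbp4 and Chrdl1 were 0.36, −0.32, −0.31 and 0.11. Fstl1, a follistatin-like secreted glycoprotein, was 7.84 to 9.30 in the TEC cultures, against 10.75 and 9.70 (difference −1.72 ± 0.56, SE; limma, adjusted p = 0.168). The fibroblast and feeder marker mean of YR219P5_Bulk_V was 6.12, against 5.62 in YR219P5cl7 and 5.68 to 6.11 in the ungrafted TEC cultures, with 0 of 13 of these probe sets past the threshold between the tissues. The part of such cells in the Ltbp and Chrdl1 values was not tested. Without YR219P5_Bulk_V the differences of Fst, Fstl1, Smad6 and Bmp3, which did not pass either, were 1.51, −1.19, 0.62 and 1.56. In the same fit Bmp2 differed by −0.42, Gdf15 by 0.66 and Smurf1 by 0.32.

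**Figure D2:**
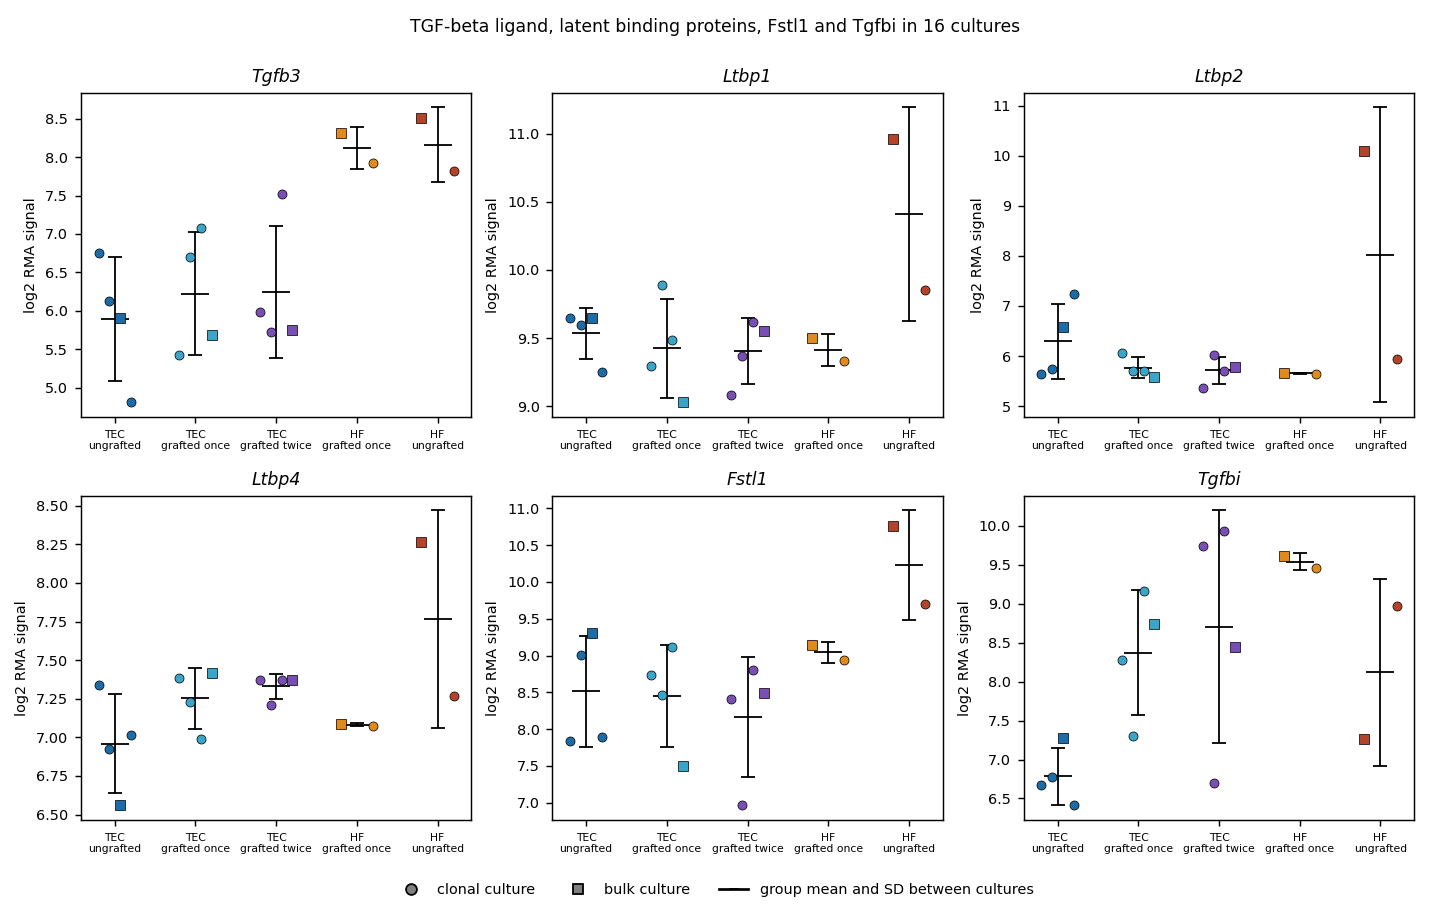
Log2 RMA signal of Tgfb3, Ltbp1, Ltbp2, Ltbp4, Fstl1 and Tgfbi in each culture, with group means and SD between cultures (4 cultures in each TEC group, 2 in each HF group). The ungrafted HF bulk culture lies above every other culture for Ltbp1, Ltbp2, Ltbp4 and Fstl1, whereas Tgfb3 is higher in all 4 HF cultures (7.82 to 8.50) than in the 12 TEC cultures (4.81 to 7.52).

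Of the ligands, Bmp3 was 7.29, 5.10, 6.36 and 7.10 in the ungrafted TEC cultures, against 4.45 and 4.90 in the ungrafted HF cultures. The difference of 1.79 ± 0.66 (SE) did not pass (limma, adjusted p = 0.233), and the lowest TEC culture was the P1 clone. Bmp2 was 3.41 to 3.83 in TEC cultures, under the limit of 4, against 4.48 and 4.02 in HF cultures. Gdf15, a stress-induced member of the superfamily, was 6.28 ± 0.21 (SD, n = 4) in TEC and 5.37 ± 0.36 (SD, n = 2) in HF cultures (adjusted p = 0.497).

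The BMP target genes and feedback inhibitors did not pass before grafting. Id1, an inhibitor of basic helix-loop-helix factors, was 8.90, 9.17, 9.87 and 8.93 in TEC cultures, against 8.83 and 7.86 in HF cultures, without overlap (difference 0.87 ± 0.38, SE; limma, adjusted p = 0.334). Id2, Id3 and Id4 overlapped between the tissues, with differences of 0.69, 0.26 and 0.52. Without YR219P5_Bulk_V the differences of Id1, Id2, Id3 and Id4 were 1.36, 1.29, 0.52 and 0.76, and none passed. Smad6, which inhibits BMP receptors, was 5.16, 5.83, 5.61 and 4.87 in TEC, against 4.65 and 4.75 in HF cultures (0.67 ± 0.20, SE; adjusted p = 0.123), and Smad7 differed by 0.09. Smurf1, a ubiquitin ligase that marks BMP Smads for breakdown, averaged 8.33 ± 0.29 (SD, n = 4) in TEC and 7.80 ± 0.28 (SD, n = 2) in HF cultures (0.52; limma, adjusted p = 0.272). Of the classical BMP antagonists, Nog (noggin) differed by −0.12 and Chrd (chordin) by −0.0016, and Grem1 (gremlin) was not shown to lie above background in either ungrafted group mean (3.89 and 3.92). Without YR219P5_Bulk_V, Smad7 differed by 0.30, Nog by −0.08 and Chrd by 0.06.

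After transplantation, follistatin mRNA was lower in TEC cultures and Acvr1 was higher. Fst was 9.79, 10.30, 11.16 and 10.82 in the ungrafted cultures, 8.22, 8.30, 9.35 and 7.70 in the first-graft cultures and 7.60, 7.68, 8.61 and 8.25 in the second-graft cultures. Every grafted culture lay below every ungrafted one, and the grafted groups overlapped. The group means, in the same order, were 10.52 ± 0.60, 8.39 ± 0.69 and 8.04 ± 0.48 (SD, n = 4 each).

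Against ungrafted TEC, Fst fell by 2.12 ± 0.38 (SE), or 4.35-fold, after the first transplantation (limma, adjusted p = 0.030). It was the single member of 71 past the threshold there (1.41%), where 0.516% of all probe sets passed. The call was lost without PRP1cl11_VII, PRP4mo_bulk, PRP4mo_Cl09, Clone_217, Clone_218 or Clone_907 (adjusted p = 0.0502 to 0.113), with only the compared cultures in the fit (adjusted p = 0.0862) and with clonal cultures alone (−1.68, adjusted p = 0.240, or −1.91, adjusted p = 0.112, with Clone_907 and Clone_354 counted as clones). After the second transplantation Fst fell by 2.48 ± 0.38 (SE), or 5.58-fold (limma, adjusted p = 0.00604). This call held when each of the 16 cultures was left out in turn (log2 −2.72 to −2.27) and was lost with clonal cultures alone (−2.34, adjusted p = 0.0701), though not with Clone_907 and Clone_354 counted as clones (−2.27, adjusted p = 0.0320).

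Acvr1 was 7.08, 7.36, 7.21 and 7.30 in the ungrafted cultures, 7.47, 7.56, 7.62 and 7.40 in the first-graft cultures and 7.89, 7.80, 8.10 and 8.07 in the second-graft cultures. The 3 groups did not overlap, with ungrafted lowest and second-graft highest. Ungrafted and first-graft cultures nearly met (7.36 and 7.40), where the 2 arrays of a culture differed by a median of 0.18 for Acvr1. Second-graft cultures averaged 7.97 ± 0.14 (SD, n = 4), 0.73 ± 0.10 (SE) above ungrafted cultures, or 1.65-fold (limma, adjusted p = 0.00371). That call also held when each culture was left out in turn (0.67 to 0.78) and was lost with clonal cultures alone (0.68, adjusted p = 0.0714), though not with those 2 cultures counted as clones (0.72, adjusted p = 0.0181). The first-graft difference of 0.27 ± 0.10 (SE) did not pass (adjusted p = 0.210). Acvr1 and Fst were the 2 of 71 members past the threshold after the second transplantation (2.82%), where 3.86% of all probe sets passed, so the members as a set were not called more often than probe sets at large. Both grafted groups are set against the same 4 ungrafted cultures, and their differences are therefore not independent of each other.

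Mean signals of some cell type marker lists also differed between these groups. The mean of 13 fibroblast and feeder probe sets was 5.68 to 6.11 in ungrafted, 5.37 to 5.60 in first-graft and 5.21 to 5.52 in second-graft TEC cultures, with Lum and Postn under 4 in all 16 cultures. None of the 13 passed after the first transplantation, and Twist1 and S100a4 fell after the second. Not all of them differed between the groups: Col1a1 overlapped (6.65 to 7.23, 6.58 to 6.98 and 6.78 to 7.15 in the same order). The mean of 3 probe sets listed for hair follicle (Lgals7, Lhx2 and Lgr5) was 4.72 to 4.88, 5.39 to 7.58 and 6.14 to 8.03 in the same order of groups. Of these, 1 of 3 passed after each transplantation. The rise was largest in Lgals7 (4.86 to 5.34, 6.94 to 11.44 and 8.67 to 11.90), on which the mean largely rests. Lhx2 was 5.38 to 5.69, 5.52 to 7.57 and 5.84 to 7.64, with overlap between ungrafted and first-graft cultures. Lgr5 lay near the limit of 4 (3.80 to 3.89, 3.71 to 4.59 and 3.92 to 4.55). The mean of 9 thymic probe sets was 7.60 to 8.25, 6.08 to 7.73 and 5.93 to 7.40. Of these, 0 passed after the first transplantation and 2 fell after the second, and Foxn1 overlapped between the groups. The thymic and follicle means did not follow Fst culture by culture. Clone_347 and Clone_287 had similar Fst (7.68 and 7.60), with thymic means of 7.40 and 6.45 and follicle means of 6.14 and 8.03. The part of feeder cells, or of any shift in the makeup of the cultures, in the Fst and Acvr1 values was not tested. In a culture, fewer cells of a type and less RNA per cell cannot be told apart.

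**Figure D3:**
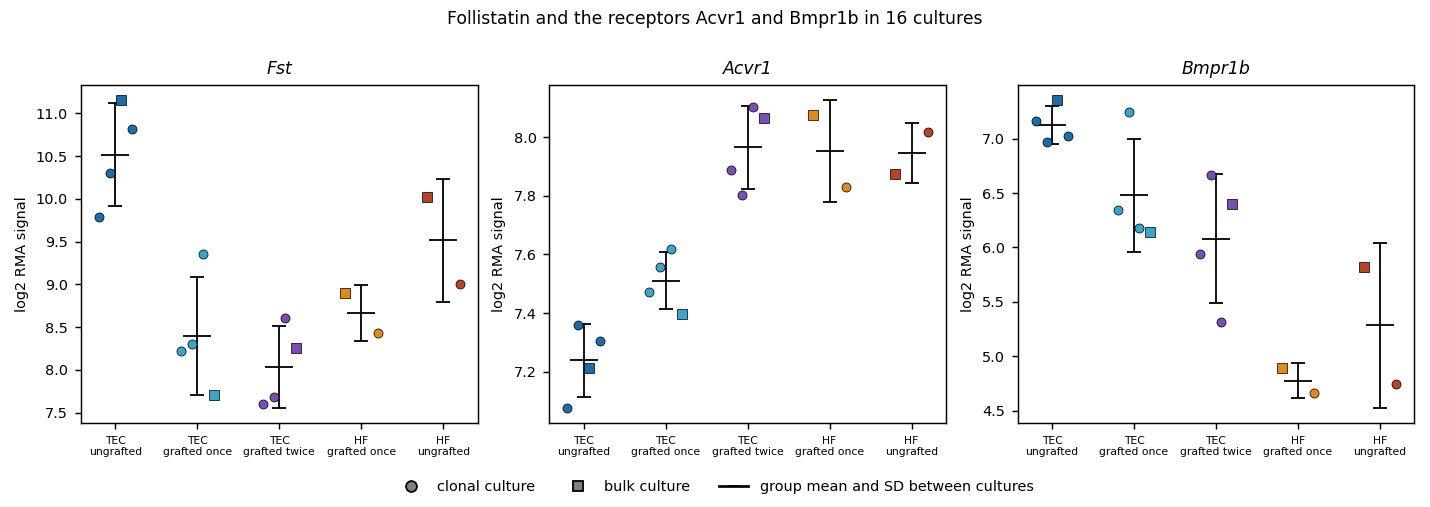
Log2 RMA signal of Fst, Acvr1 and Bmpr1b in the 16 cultures by group, with group means and SD between cultures (4 cultures in each TEC group, 2 in each HF group). Fst in the 8 grafted TEC cultures (7.60 to 9.35) lies below the 4 ungrafted ones (9.79 to 11.16), and Acvr1 in second-graft TEC (7.80 to 8.10) overlaps with the 4 HF cultures (7.83 to 8.08).

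Bmpr1b was 6.97 to 7.35 in ungrafted cultures, 6.34, 7.24, 6.18 and 6.15 in first-graft cultures and 5.94, 6.66, 5.31 and 6.40 in second-graft cultures. Second-graft values lay below all ungrafted values, while Clone_218 of the first-graft group lay among them. The differences were −0.65 ± 0.31 (SE; adjusted p = 0.349) after the first and −1.05 ± 0.31 (SE; limma, adjusted p = 0.0737) after the second transplantation, and neither passed. Acvr1b, the type I activin receptor, was 7.46, 6.87, 7.40 and 7.62 in ungrafted, 8.74, 7.68, 8.16 and 8.17 in first-graft and 8.87, 8.40, 8.75 and 7.69 in second-graft cultures. Every grafted value lay above every ungrafted one, yet neither difference passed (0.85 ± 0.29, adjusted p = 0.193, and 1.09 ± 0.29, adjusted p = 0.0519; SE). Bmpr2, the type II BMP receptor, differed by 0.21 and 0.30. Of the 12 receptors, 0 passed after the first transplantation and Acvr1 alone passed after the second.

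No ligand passed in either comparison. Inhbb, the activin B subunit, was 8.20, 8.38, 8.75 and 8.66 in ungrafted cultures, 8.02, 7.60, 7.96 and 8.12 in first-graft cultures and 8.16, 7.75, 8.25 and 8.15 in second-graft cultures. The first-graft values lay below the ungrafted ones and the second-graft values overlapped with them (−0.57 ± 0.14 and −0.42 ± 0.14, SE; adjusted p = 0.0985 and 0.121). Bmp6, an epithelial BMP, differed by 0.59 after the second transplantation (adjusted p = 0.0598) and Bmp7 by −0.47 (adjusted p = 0.0764), both without overlap. Bmp3 spread widely within every TEC group, from 5.10 to 7.29 in ungrafted, 6.25 to 7.62 in first-graft and 6.40 to 8.89 in second-graft cultures. Inhba, the activin A subunit, was 4.23 to 4.97 in all 8 grafted TEC cultures and 4.60 to 5.40 in ungrafted ones.

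The readouts of the pathway did not pass either. Id3 was 10.31, 10.22, 10.82 and 10.42 in ungrafted, 10.25, 9.42, 9.67 and 10.16 in first-graft and 10.15, 8.97, 9.55 and 9.74 in second-graft cultures. Its second-graft values lay below all ungrafted ones (−0.84 ± 0.26, SE; limma, adjusted p = 0.0867). Id1 differed by −0.18 and −0.68, Id2 by 0.29 and −0.43, and Id4 by 0.06 and −0.15, in each case first-graft and second-graft against ungrafted, with adjusted p from 0.246 to 0.971. Smad6 was 4.87 to 5.83 in ungrafted, 4.91 to 5.09 in first-graft and 4.63 to 4.88 in second-graft cultures (−0.40 and −0.58; adjusted p = 0.270 and 0.0601). Smad7 differed by −0.31 and −0.08.

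Tgfbi, which TGF-beta induces, was 6.68, 6.77, 7.28 and 6.41 in ungrafted, 8.28, 7.30, 9.16 and 8.74 in first-graft and 9.74, 6.69, 9.94 and 8.45 in second-graft cultures. Clone_347 was the one second-graft culture within the ungrafted range. Its differences of 1.59 ± 0.62 and 1.92 ± 0.62 (SE) did not pass (adjusted p = 0.255 and 0.0997). Nog, Chrd and Grem1 differed by −0.14 to −0.01 in these comparisons.

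**Figure D4:**
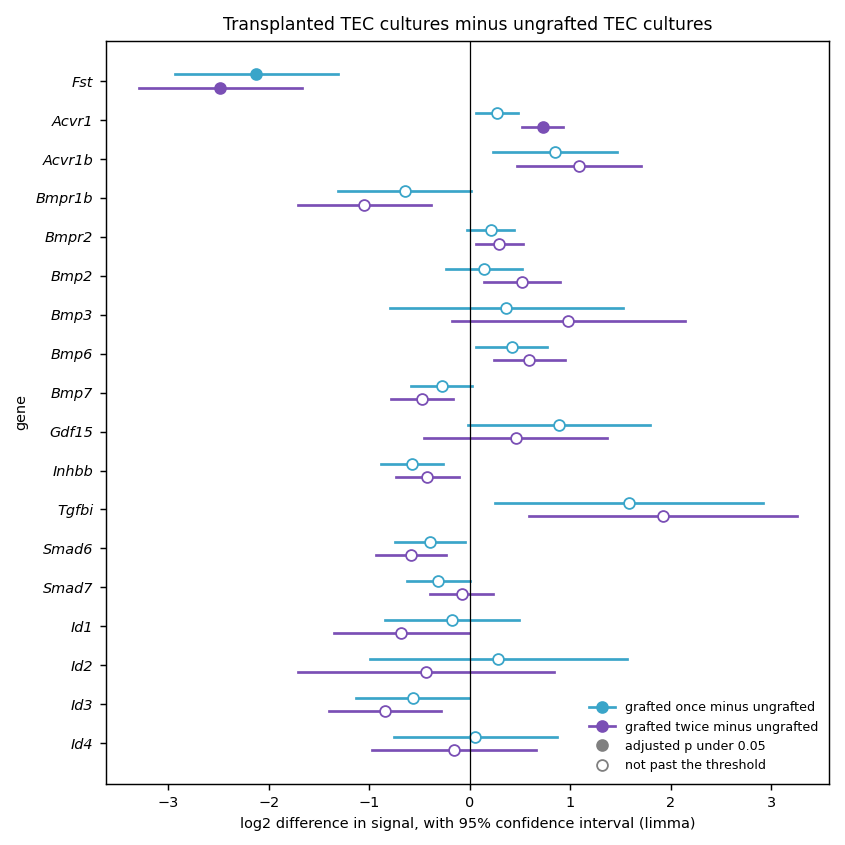
Log2 difference in signal (x axis) of 18 members between first-graft or second-graft TEC cultures and ungrafted TEC cultures, with 95% confidence intervals from limma; filled points passed an adjusted p of 0.05. Fst passed in both comparisons and Acvr1 in the second-graft one, and among the 4 Id genes the intervals of Id3 in both comparisons and of Id1 in the second-graft one lie below 0 without passing the adjusted test.

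Of 61 other genes of the pathway listed with earlier results known, 44 were measured by a single-symbol probe set. In the comparisons above, 0 of 44 passed between ungrafted TEC and HF cultures, 0 after the first transplantation and 1 after the second. Over all probe sets 1.55%, 0.516% and 3.86% passed in the same order. The one was Rgma, a BMP co-receptor of the repulsive guidance molecule family, at 7.79 ± 0.23 in second-graft and 6.52 ± 0.21 in ungrafted TEC cultures (SD, n = 4 each; difference 1.28 ± 0.27, SE; limma, adjusted p = 0.0235).

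Second-graft and first-graft TEC cultures were also compared with each other. No member passed, and 0% of all probe sets did (limma, 0 of 15316; 532 at an unadjusted p under 0.05, 2 of them members). The members were Acvr1, 0.45 ± 0.10 (SE) higher in second-graft cultures with no overlap (adjusted p = 1.00), and Bmp2 (0.38). Id1 had the next smallest p (−0.50). Fst differed by −0.36 (95% interval −1.17 to 0.45) and Bmpr1b by −0.40 (−1.06 to 0.27).

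In HF cultures, 0 of 71 members passed after transplantation, as did 0% of all probe sets (limma, 0 of 15316; 1354 at an unadjusted p under 0.05, 7 of them members). All probe sets together shifted by a median of 0.10 in this comparison, and by 0.0049 after each array was centred on its median, while the members had a median of 0.05. Acvr1 was 8.08 and 7.83 in grafted HF cultures, against 7.87 and 8.02 in ungrafted ones, a difference of 0.01 (95% interval −0.28 to 0.30). Fst was 8.90 and 8.43 in grafted HF, against 10.03 and 9.01 in ungrafted HF cultures (−0.85 ± 0.53, SE; adjusted p = 0.609). Bmpr1b was 4.89 and 4.66, against 5.82 and 4.75 (−0.51; adjusted p = 0.696). Without YR219P5_Bulk_V the differences were −0.07 for Acvr1, −0.35 for Fst and 0.03 for Bmpr1b, so that of Bmpr1b did not keep its direction.

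The 3 smallest p-values there belonged to Gdf9, a growth factor of the oocyte (4.62 and 4.35 in grafted HF, against 4.05 and 3.96 in ungrafted HF), Ltbp1 (9.50 and 9.33, against 10.96 and 9.85) and Smurf2, a ubiquitin ligase that acts on Smads and receptors (6.43 and 6.36, against 6.98 and 7.12). Their adjusted p was 0.562 each. The second probe set of Smurf2 differed by −0.15, against −0.65 for this one. Without YR219P5_Bulk_V the differences were 0.53 for Gdf9, −0.44 for Ltbp1 and −0.72 for Smurf2. With YR219P5_Bulk_V as the sole ungrafted HF culture, Ltbp2 (−4.45), Chrdl1 (−1.63), Ltbp1 (−1.55) and Ltbp4 (−1.18) passed, 5.63% of the members, where 1.70% of all probe sets did. With YR219P5cl7 as the sole one, no member and no other probe set passed.

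Whether transplantation moved a gene differently in TEC and HF cultures was tested as a difference of differences. No member passed, and 0% of all probe sets did (limma, 0 of 15316; 866 at an unadjusted p under 0.05, 5 of them members). For Fst the value was −1.27 ± 0.65 (SE; 95% interval −2.67 to 0.14; adjusted p = 0.827), for Acvr1 0.26 (−0.09 to 0.62) and for Bmpr1b −0.14 (−1.29 to 1.01). A difference between the tissues in the fall of Fst was thus not shown. The smallest p-values belonged to Ltbp4 (0.98), Bmpr2 (0.55) and Smad6 (−0.71). Without YR219P5cl7, Ltbp2 and Ltbp4 passed (2.82% of the members, where 0.490% of all probe sets did). Without YR219P5_Bulk_V no member and no other probe set passed, and the values were −0.25 for Ltbp2, 0.48 for Ltbp4, 0.41 for Bmpr2 and −0.66 for Smad6. In that fit Fst was −1.78, Acvr1 0.34 and Bmpr1b −0.68 (adjusted p = 0.999 each).

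Grafted TEC cultures were compared with grafted HF cultures. Here the median of all probe sets was −0.11 for first-graft and −0.11 for second-graft TEC, and 0.03 for each after the arrays were centred. No member passed in first-graft TEC, where 0.0718% of all probe sets passed, or in second-graft TEC, where 0.0457% did. Unadjusted p-values under 0.05 were found for 17 of 71 members (23.9%) in first-graft TEC, against 17.0% of all probe sets, and for 13 (18.3%) in second-graft TEC, against 21.0%.

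Bmpr1b remained higher without overlap, at 6.15 to 7.24 in first-graft TEC and 5.31 to 6.66 in second-graft TEC, against 4.89 and 4.66 in grafted HF cultures. The differences were 1.70 ± 0.38 (SE; adjusted p = 0.134) and 1.30 ± 0.38 (SE; adjusted p = 0.125). Acvr1 in first-graft TEC lay below grafted HF (−0.44 ± 0.12, SE; adjusted p = 0.168), whereas in second-graft TEC it overlapped with grafted HF (0.01; 95% interval −0.24 to 0.26). Fst differed from grafted HF by −0.27 (−1.26 to 0.72) in first-graft and by −0.63 (−1.62 to 0.37) in second-graft TEC.

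Bmp3 was 6.25 to 7.62 in first-graft TEC and 6.40 to 8.89 in second-graft TEC, against 4.71 and 4.88 in grafted HF cultures (2.03 and 2.65; adjusted p = 0.202 and 0.113). Tgfb3 was 5.42 to 7.08 and 5.72 to 7.52, against 8.31 and 7.93 (−1.90 and −1.88; adjusted p = 0.199 and 0.134). Over all 16 cultures, every TEC culture had more Bmp3 than every HF culture (5.10 to 8.89, against 4.45 to 4.90). Every TEC culture also had less Tgfb3 (4.81 to 7.52, against 7.82 to 8.50). The same held, by a narrow gap, for Gdf6 (4.85 to 5.21, against 5.28 to 5.52). The share of all probe sets that separate in this way was not counted. Acvr1c, Gdf2 and Gdf9 also had small p-values. Each of them was highest in YR219P5_RC, the grafted HF culture whose array 1 had the highest median. Acvr1c (3.66 to 4.28 over all cultures) and Gdf9 (3.93 to 4.62) lay near the limit of 4, and Gdf2 differed by −0.41 and −0.49.

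Among TEC donors, P1 cultures had less Smad1, Gdf15, Tgif1 and Id2 than E16 cultures. These 4 of 71 members (5.63%) passed, all lower in P1, where 6.08% of all probe sets passed in either direction, so the share of members was close to that at large. Stage differences were fitted within TEC (12 cultures), adjusted for transplantation state, and can therefore differ from the difference of the means given. The P1 group held 1 culture of each state and the E16 group 1 ungrafted, 2 first-graft and 2 second-graft cultures. Of 9 thymic marker probe sets, 2 were also lower in P1 than in E16 cultures, and their part in the results was not tested.

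Smad1, which carries the BMP signal, was 7.77, 7.62 and 7.93 in the P1 cultures, against 7.98, 8.71, 8.70, 8.81 and 8.53 in the E16 cultures. The groups did not overlap, and the ungrafted E16 clone, at 7.98, was next to the P1 values (difference −0.73 ± 0.15, SE; limma, adjusted p = 0.0246). Gdf15 was 6.20, 6.13 and 6.03 in P1, against 6.59, 7.53, 8.32, 6.94 and 7.73 in E16 cultures, again without overlap (−1.25 ± 0.27, SE; adjusted p = 0.0285). Tgif1, a corepressor of Smad2 and Smad3, was 9.31, 9.08 and 8.79 in P1, against 9.49, 9.47, 9.64, 9.45 and 9.33 in E16 cultures (−0.44 ± 0.10, SE; adjusted p = 0.0316). Those values did not overlap either, with 9.31 the highest in P1 and 9.33 the lowest in E16 cultures.

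Id2 was 8.69, 7.76 and 7.30 in P1, against 9.36, 9.47, 10.01, 8.66 and 9.81 in E16 cultures. The ungrafted P1 clone lay just above the lowest E16 culture, and the difference was −1.60 ± 0.40 (SE), or 3.03-fold (limma, adjusted p = 0.0474). The other Id genes did not pass, with differences of −0.54 for Id1, −0.09 for Id3 and −0.63 for Id4. These calls rested on few cultures: 0 members passed without Clone_217, without Clone_57 or without Clone_194, and the count over all probe sets was then 380, 4 and 83 in place of 931. Id2 was lost without 8 of the 12 TEC cultures, Gdf15 and Tgif1 without 5 each and Smad1 without 3. Fst differed by 0.81, Bmpr1b by −0.64 and Acvr1 by 0.20 between P1 and E16 (adjusted p = 0.177, 0.185 and 0.187). Of the 44 other pathway genes, 1 passed as lower and 1 as higher, where 6.08% of all probe sets passed in either direction. Cdkn1a, a cell cycle inhibitor, was lower in P1 (−0.79 ± 0.13, SE; limma, adjusted p = 0.0137) and Cdkn2b, a cell cycle inhibitor that TGF-beta induces, was higher (2.19 ± 0.42, SE; adjusted p = 0.0212).

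**Figure D5:**
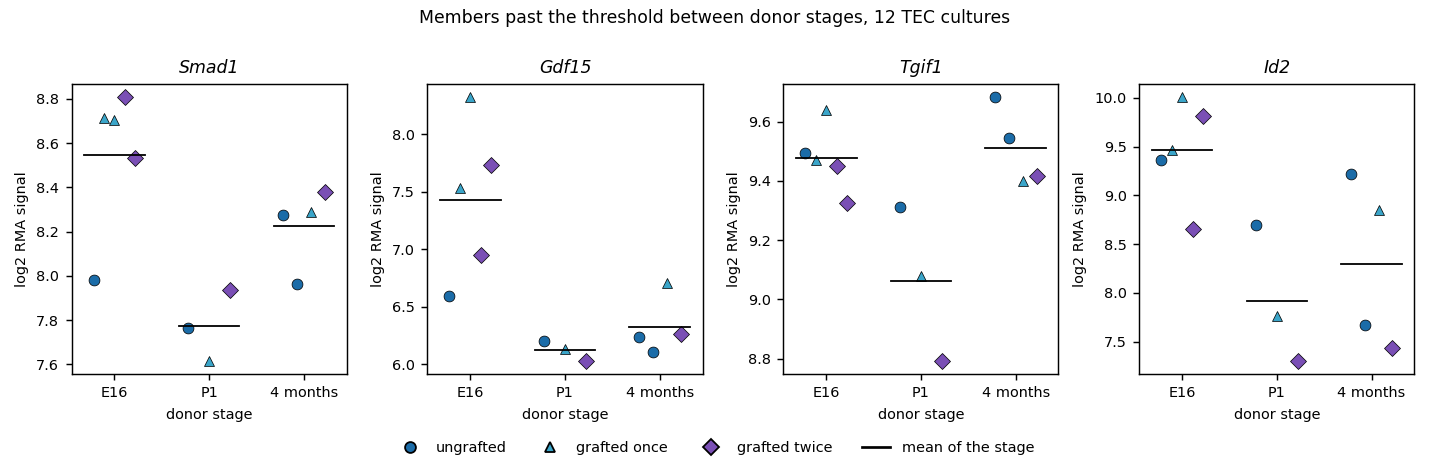
Log2 RMA signal of Smad1, Gdf15, Tgif1 and Id2 in the 12 TEC cultures by donor stage (E16, 5 cultures; P1, 3; 4 months, 4), with the symbol giving the transplantation state and the line the mean of the stage. The P1 cultures lie below the E16 cultures for Smad1, Gdf15 and Tgif1, and overlap with them for Id2.

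The 4-month cultures differed from the E16 cultures in no member, where 0.0914% of all probe sets passed. At an unadjusted p under 0.05 there were 8 of 71 members (11.3%), against 11.1% of all probe sets. The smallest p-values belonged to Id4, at 6.49 ± 0.41 (SD, n = 4) in 4-month and 7.46 ± 0.35 (SD, n = 5) in E16 cultures without overlap (−1.07 ± 0.25, SE; limma, adjusted p = 0.185), Gdf15 (−0.97) and Smad2 (0.34). Nor did a member pass between 4-month and P1 cultures, where 0.353% of all probe sets passed. Bmp2 (−0.54; adjusted p = 0.0765), Bmp3 (1.71; adjusted p = 0.127) and Tgif1 (0.42; adjusted p = 0.129) had the smallest p-values there. Fst differed by 0.51 and −0.30, Acvr1 by 0.09 and −0.11 and Bmpr1b by −0.21 and 0.43 in 4-month against E16 and in 4-month against P1 cultures, with adjusted p from 0.595 to 0.890.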

How the data were processed

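RNA of 16 cultures was amplified, labelled with biotin and measured on Affymetrix rat gene arrays, 2 per culture, per the labels' protocols. The deposited values are log2 signals, which the authors made with RMA; the submitters' processing notes also name Affymetrix Expression Console. The software version, background setting and annotation release are not given in the sources used here. A base of 2 fits the range of values (1.53 to 14.03) and the usual output of RMA. Arrays have no count depth, and the number of cultures limits the precision.

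Of 29215 probe sets, 15316 carried exactly 1 distinct gene symbol and were tested without a filter. The 317 with several symbols and the 13582 with none were left out. Both arrays of a culture were averaged. Comparisons were fitted with limma 3.58.1 in R 4.3.3 (lmFit, eBayes, two-sided) on all 16 culture means, so that the 5 groups pooled their spread. Donor stages were fitted on TEC cultures only, adjusted for transplantation state. P-values were adjusted by the Benjamini-Hochberg method over all 15316 probe sets, with 0.05 as the threshold. The steps were tested on simulated data. Tgif2 has 3 probe sets, of which 2 hold the same values, and Smurf2 has 2. Signals under 4 were treated as possibly background.

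Genes were named by rule: members past the threshold in any comparison, Fst, Bmpr1b and Acvr1 throughout, the 3 smallest p-values where no member passed, Id1 to Id4, Smad6, Smad7, Nog, Grem1 and Chrd in the main comparisons, the 2 members of each role with the largest SD, and other pathway genes past the threshold. Bmp6, Bmp7, Bmpr1a, Chrdl1, Gdf6, Ltbp3 and the low members Bmp5, Bmp10, Bmp15 and Gdf3 are outside this rule. They were chosen after their values were seen, as was the limit of 4. The members, lists and tests were chosen with earlier results of these data known. Alternatives were array centring, the cultures in the fit, clonal cultures alone, donor stage, arrays as the unit, a filter on dim probe sets, an intensity trend and each culture left out. Promoter windows came from RefSeq on GRCr8.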

Additional observations from a re-analysis of the deposited data

Results flagged for a closer look

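Dixon's test was applied to the 35 named member probe sets in each of the 3 TEC groups of 4 cultures, 105 groups in all. In 3 of them 1 culture lay far from the rest, where chance alone marks about 1 in 20. Tgfb3, the TGF-beta ligand, was 7.52 in Clone_194, the second-graft P1 clone, against 5.72 to 5.98 in the other second-graft TEC cultures. Ltbp4 was 7.21 in Clone_347, a second-graft E16 clone, against 7.37 in each of the others, a small gap within a narrow group. Ltbp1 was 9.26 in PRP4mo_Cl09, an ungrafted 4-month clone, against 9.59 to 9.65 in the other ungrafted TEC cultures.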

How the results depend on the processing

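None of the 9 member differences that passed changed direction under any alternative. Array centring, the intensity trend and leaving out array 1 of YR219P5_RC (chosen after seeing the data) moved no count of members. With only the compared cultures in the fit, 1 member passed between ungrafted TEC and HF cultures, 0 in first-graft TEC and 3 in second-graft TEC. With clonal cultures alone, 0 passed in each of these 3 comparisons, and 2 passed between P1 and E16. With Clone_907 and Clone_354 counted as clones, as their titles have it (chosen after seeing the data), the counts were 0, 0, 2 and 4. With donor stage in the model, 4 passed between ungrafted TEC and HF cultures, 4 in second-graft TEC, 4 between first-graft TEC and grafted HF cultures and 5 between second-graft TEC and grafted HF cultures. With dim probe sets left out, 4 passed in second-graft TEC. Counts over all probe sets moved as well and are given below for some of these fits only.

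When single arrays were fitted, with their culture as a random block, p-values can be too small. The members that passed were then 11 between ungrafted TEC and HF cultures, 4 in first-graft TEC, 13 in second-graft TEC, 1 in grafted HF, 3 between first-graft TEC and grafted HF, 5 between second-graft TEC and grafted HF, 4 between 4 months and E16, 14 between P1 and E16 and 4 between 4 months and P1. With the array number added as a replicate block the counts were 10, 4, 13, 0, 3, 4, 4, 12 and 4 in the same order. The array number pairs no samples: deviations of arrays numbered 1 correlated at a mean of −0.016 between cultures (−0.64 to 0.57).

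Leaving out each culture in turn gave 0 to 4 members between ungrafted TEC and HF cultures, 0 to 1 in first-graft TEC, 2 to 4 in second-graft TEC, 0 to 4 in grafted HF, 0 to 2 for the difference of differences, 0 to 5 between P1 and E16 and 0 in the other comparisons. Over all 15316 probe sets, 18 to 375, 8 to 148, 149 to 674, 0 to 260, 0 to 75 and 4 to 1599 passed in these 6 comparisons. The highest counts came without YR219P5cl7 (4 between ungrafted TEC and HF, 4 in grafted HF and 2 for the difference of differences), without Clone_218 (4 in second-graft TEC) and without Clone_907 or Clone_287 (5 between P1 and E16). With 2 HF cultures in a group, each such fit leaves 1, which is assumed to vary like the other groups.

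Over all probe sets the counts moved as well, and they are given here for some of the alternatives and comparisons. A higher count of members under an alternative is therefore not by itself a result about the members. Between ungrafted TEC and HF cultures, 238 passed, against 4 with clonal cultures alone, 483 with donor stage fitted and 977 when single arrays were fitted with the random block (944 with the replicate block added). In first-graft TEC, 79 passed, against 17 with only the compared cultures, 0 with clonal cultures alone, 143 with donor stage and 1183 with the random block. In second-graft TEC, 591 passed, against 35 with clonal cultures alone and 2070 with the random block. Between second-graft TEC and grafted HF cultures, 7 passed, against 91 after array centring, 501 with donor stage and 721 with the random block. Between P1 and E16, 931 passed, against 2571 with the random block.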
